A study of Mus musculus with 6 samples.

Results

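The clustered protocadherins are the 57 protein-coding genes on mouse chromosome 18 whose GENCODE M21 symbols begin with Pcdha, Pcdhb or Pcdhg, out of 21853 protein-coding genes with an annotated start on the autosomes and sex chromosomes. They comprised 12 alpha, 2 alpha C, 22 beta, 12 gamma A, 6 gamma B and 3 gamma C genes. They lie on the forward strand in chr18:36930184-37841873 (GRCm38/mm10), a span of 911.69 kb. GENCODE M21 gives the symbol Pcdha11 to 2 of these genes, and the one starting at 37005203 is called Pcdha10 here, after its RefSeq symbol. Pcdhgb8 is annotated as a polymorphic pseudogene and is not one of the 57.

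H3K79me2, a histone mark, was profiled by ChIP-seq with antibody ab3594 in Neuro-2a (N2a) cells, a mouse neuroblastoma line. Control cells (CTR) received the non-target plasmid pLKO.1-shCTR, and NPM1 KD cells received pLKO.1-shNpm1, which encodes an Npm1-directed short hairpin RNA. The knockdown cells were kept in puromycin from 24 h after transfection, and chromatin was collected after 72 h, labelled 3 days in vitro. Each group held 2 libraries, described as independent biological replicates from separate passages and transfections. A single hairpin was used, so its effects and those of NPM1 loss cannot be told apart, and the peak lists do not measure Npm1 RNA. The comparison asks whether H3K79me2 at these genes differs once NPM1 is depleted.

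Clustered protocadherins are cell-surface adhesion proteins of the cadherin superfamily that give neurons an individual surface identity. Each alpha and gamma gene has its own promoter and a large variable first exon that encodes the extracellular, transmembrane and proximal cytoplasmic parts. That exon is spliced to small constant exons shared by the whole cluster, which encode the common end of the cytoplasmic tail. Beta genes have a single exon and no constant exons. Neurons usually transcribe a changing subset of the alpha, beta, gamma A and gamma B promoters, whereas the C-type genes next to the constant exons are used more uniformly. H3K79me2 is written by DOT1L on transcribed chromatin, mainly in the first part of gene bodies.

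Peaks were called in each library separately, and a narrow and a broad list was read for each. The narrow lists held 85655 and 73801 peaks in CTR and 88348 and 85057 in NPM1 KD, and the broad lists 48764, 34845, 44228 and 46565. Read totals were not given, so depth was known only through the background level recovered from the fold and p columns, which was 11.9 and 7.65 fragments per base in the CTR libraries and 8.99 and 11.8 in the NPM1 KD libraries. All 109, 93, 112 and 123 narrow peaks in the protocadherin span had whole-number summit pileups when set against that one level. The broad peaks covered 236 and 223 Mb of the genome in CTR and 253 and 244 Mb in NPM1 KD.

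In all 4 libraries the same 30 of the 57 genes had a narrow peak in the start window, which runs from 1 kb upstream to 2.5 kb downstream of the transcript start. The share over all protein-coding genes was 47%. Both CTR libraries held a peak at 30 members, beside 47.2% of all genes, and both NPM1 KD libraries at 32, beside 48%. In no library was there a narrow peak at 20 members, beside 50.4% of all genes. Singly, the libraries had 33, 30, 36 and 33 marked members in the order CTR 1, CTR 2, NPM1 KD 1 and NPM1 KD 2, an order kept below wherever 4 values follow each other. As shares of the 57, the members marked in all 4 libraries were 52.6% and those marked in none 35.1%. Other definitions changed the order: 21.1% of members and 39.0% of all genes were marked in all 4 libraries where at least 50% of the window had to be covered, and 52.6% and 35.4% where the first exon replaced the window. The 57 windows behaved alike across libraries, with Pearson's r of covered length between 0.956 and 0.978 over the 6 library pairs, although adjacent windows can share a peak and the libraries share the genome's base composition.

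Marked and unmarked genes stood in runs. The longest runs without a narrow peak were the 6 genes from Pcdha2 to Pcdha7 and the 7 from Pcdhga8 to Pcdhga11, which include Pcdhgb5, Pcdhgb6 and Pcdhgb7. The other unmarked members were Pcdhb1, Pcdhb2, Pcdhb9, Pcdhga1, Pcdhga2, Pcdhga6 and Pcdhga7. The marked members filled most of the beta cluster. By subtype, a narrow peak in all 4 libraries was found at 5 of 12 alpha, 2 of 2 alpha C, 16 of 22 beta, 2 of 12 gamma A, 2 of 6 gamma B and 3 of 3 gamma C genes. Pcdhgb8 lies next to the second unmarked run, and narrow peaks covered 2453, 1789, 2420 and 2198 bp of its start window.

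**Figure D1:**
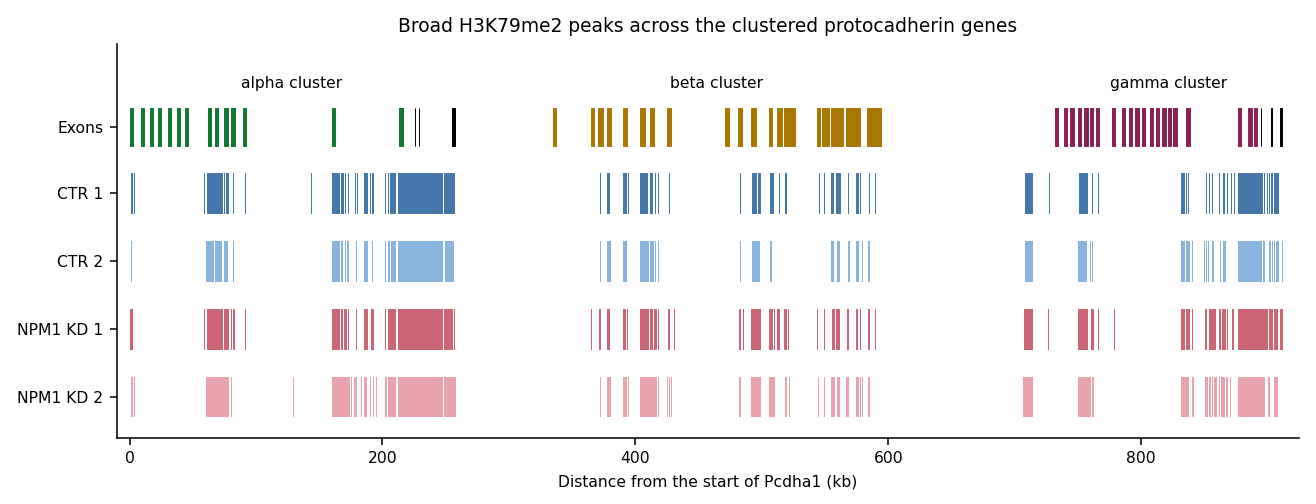
Broad H3K79me2 peaks of the 4 libraries along the span, with distance from the start of Pcdha1 in kb on the x axis and 1 row per library. The top row gives the variable exons in colour and the constant exons in black, outlined so that the shortest can be seen; dense blocks stand over Pcdhac2 with the alpha constant exons and over Pcdhgc3 to Pcdhgc5, and the gap between the alpha and beta clusters is nearly empty in every library.

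In the alpha cluster, peaks were found at Pcdha1 and from Pcdha8 to Pcdha12, with the genes between them bare. Narrow peaks covered 2692, 2576, 2811 and 3239 bp of the 3501 bp start window of Pcdha8. The window of Pcdha9 was covered over 2974, 2619, 2876 and 3122 bp. That of Pcdha10 was covered over 2184, 1801, 2710 and 2731 bp. For Pcdha8 and Pcdha10 both NPM1 KD values lay above both CTR values, and for Pcdha9 the groups overlapped. Under broad peaks the Pcdha8 window was full, at 3501 bp, in all 4 libraries, so the groups did not differ there. Pcdha9 carried the highest summit of this run, at 11.0, 9.37, 12.3 and 10.5-fold over background. Pcdha12, the last of the run, had a narrow peak in CTR 1 and NPM1 KD 1 and none in the replicates numbered 2. Broad peaks covered 77.7%, 67.9%, 84.5% and 83.4% of the stretch from Pcdha8 to the end of the Pcdha11 exon, and 5.70%, 4.40%, 6.31% and 5.04% of that from Pcdha1 to Pcdha7.

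Pcdhac2 had the highest narrow summit of the family in each library. This gene, the variable exon nearest to the alpha constant exons, reached 26.9, 22.2, 23.7 and 21.3-fold over background at the highest narrow peak, with summit pileups of 345, 191, 236 and 271 fragments. The fold ranked at percentile 98.0, 96.6, 97.7 and 97.9 of all narrow peaks of its library. Narrow peaks covered 3104, 3283, 3406 and 3485 bp of its start window. Both NPM1 KD libraries had more of the Pcdhac2 window covered than both CTR libraries, whereas the fold did not separate the groups that way. One broad peak over Pcdhac2 was 35.2, 35.2, 35.5 and 35.8 kb long and ran into the second constant intron. Pcdhac1, the other C-type gene of this cluster, was weaker, at 5.51, 4.86, 6.51 and 4.15-fold, with 2294, 2499, 2480 and 2425 bp of its window covered, and there the groups overlapped.

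The alpha constant exons lay mostly under broad peaks, and the third was less fully covered by narrow ones. These exons are at 37156155-37156213, 37159265-37159353 and 37184946-37187657, and every alpha transcript runs across them, so a peak there cannot be assigned to 1 gene. The first 2 were covered in full by both narrow and broad peaks in all 4 libraries. Of the third, which is 2712 bp long, broad peaks covered 100%, 80.6%, 74.3% and 100%. Narrow peaks covered 78.0%, 71.8%, 40.0% and 83.3% of it. Broad peaks covered 96.7%, 93.8%, 95.0% and 97.9% of the block from the first to the last constant exon, and the groups overlapped (CTR 95.2 ± 2.07%, NPM1 KD 96.4 ± 2.04%, SD, n = 2; exact permutation p = 0.667, two-sided). With 2 libraries against 2, the smallest p this test can give is 0.333, so no such comparison here could pass 0.05. Upstream, between Pcdha12 and Pcdhac1, at most 1.63% was covered in any library.

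In the beta cluster, peaks were present but modest. Summed over the libraries, Pcdhb6, a single-exon adhesion gene like its neighbours, had most of its start window under narrow peaks, at 2300, 2426, 2463 and 2445 bp. Pcdhb4 followed at 2267, 2267, 2326 and 2350 bp. At both genes the NPM1 KD libraries were above the CTR libraries by small margins. The start window of Pcdhb7 was covered over 1953, 1741, 2274 and 2575 bp, and both NPM1 KD libraries exceeded both CTR libraries. Pcdhb18 had 2028, 1675, 2504 and 2208 bp, again with both NPM1 KD libraries above. Pcdhb11, at 1808, 1480, 1864 and 1877 bp, and Pcdhb12, at 1490, 1188, 2010 and 1630 bp, followed the same order of groups. The ranges of the groups overlapped at Pcdhb5, with 1865, 998, 1835 and 1794 bp, and at Pcdhb17, with 1644, 1270, 1451 and 1569 bp. Pcdhb21 had 829, 1208, 1556 and 1933 bp, more in both NPM1 KD libraries. CTR 2 had the least covered of the 4 libraries at 6 of these 9 beta genes, and it also had the lowest background level. Whether these are linked was not tested. In broad peaks the groups overlapped at Pcdhb4, Pcdhb6, Pcdhb17 and Pcdhb18. At the rest of these 9 genes both NPM1 KD libraries were higher in broad peaks as well. The opposite order of narrow coverage was found at Pcdhb3, with 550, 663, 465 and 323 bp, where the groups overlapped in broad peaks.

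The highest beta summits were those of Pcdhb11, at 8.46, 7.75, 8.31 and 7.75-fold, and Pcdhb6, at 7.92, 7.29, 9.31 and 7.43-fold. Other beta members had a narrow peak in some libraries only. Pcdhb13 had narrow peaks in both NPM1 KD libraries and in no CTR library, at 2.5 and 1.96-fold. Pcdhb16 had one in every library but CTR 2, at 3.41-fold in CTR 1 and 3.00 and 2.66-fold in the NPM1 KD libraries. Pcdhb22 had one in NPM1 KD 1 alone, at 2.5-fold.

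In the marked beta genes, the highest signal lay downstream of the start and inside the single exon, whose median length was 3714 bp over the 22 beta genes. At the 16 beta genes with a narrow peak in all libraries, the summit of the highest peak lay a median of 1962, 1955, 1938 and 1926 bp downstream of the start, and it fell between 1500 and 2500 bp at 15, 16, 15 and 15 of them. At the 5 marked alpha genes the median was 2096, 1422, 1644 and 1364 bp, with 5, 2, 3 and 2 summits in that range. At the C-type genes of the alpha cluster, summits lay 608, 627, 1878 and 525 bp from the start of Pcdhac1 and 574, 601, 713 and 2907 bp from that of Pcdhac2. In the first 100 bp of the gene, narrow peaks covered 1.81%, 1.56%, 3.88% and 2.75% of bases of these beta genes. In the 100 bp starting 2000 bp downstream they covered 87.9%, 79.6%, 88.9% and 87.5%. The other 10239 protein-coding genes with a peak in all libraries had 63.8%, 55.1%, 67.5% and 54.3% covered in the first 100 bp and 87.9%, 85.3%, 89.1% and 88.7% at 2000 bp. In the 100 bp starting 1000 bp downstream, the beta genes had 32.1%, 42.4%, 66.7% and 62.5% covered, and the other genes 91.6%, 89.8%, 92.9% and 92.0%. This position was chosen after the values were seen. Among the beta genes both NPM1 KD libraries were higher there than both CTR libraries, and among the other genes as well, by a smaller margin.

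**Figure D2:**
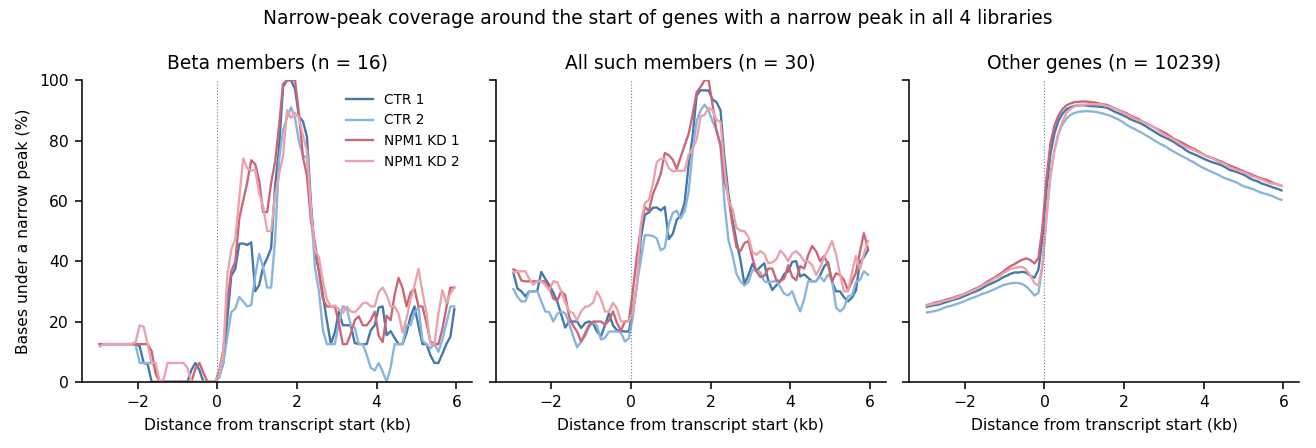
Percent of bases under a narrow peak in 100 bp steps against distance from the transcript start in kb, 1 line per library, for 16 beta members, all 30 members with a narrow peak in all 4 libraries, and 10239 other genes. The beta members have almost no coverage at the start and reach their highest value in the steps starting at 1700 or 1800 bp, while the other genes are at their highest from 900 to 1300 bp and decline slowly.

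Variable exons resemble one another, and reads that map to several places can be lost. Stretches of 51 bases, the read length, that recur exactly elsewhere in the assembly made up a median of 14.9% of the alpha variable exons, 3.48% of the beta exons, 0.236% of the gamma A and 11.4% of the gamma B exons, and none of the C-type exons. Over all subtypes the median was 4.35% at the 30 members marked in all libraries and 3.93% at the 20 marked in none. Within the alpha genes it was 16.3% over the 5 marked in all libraries and 14.5% over the 6 marked in none. Their part in the calls was not tested further. In the beta exons, the recurring share was 4.77% over the first 500 bp and 9.50% from 1500 to 2000 bp, where the coverage was highest. The GC content had a median of 46.0% in beta exons and 53.1% in alpha exons.

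In the gamma cluster, the variable genes were marked at 2 places. One lay from Pcdhgb1 through Pcdhga4 to Pcdhgb2, of which broad peaks covered 69.1%, 67.9%, 81.6% and 88.3%. Narrow peaks covered 3501, 3322, 3501 and 3501 bp of the Pcdhga4 window, so it was full in 3 of 4 libraries. The Pcdhgb1 window had 2046, 2190, 2383 and 2309 bp covered, more in both NPM1 KD libraries than in both CTR libraries. Pcdhgb2 carried the highest summit of these 3 genes, at 9.16, 8.21, 8.91 and 8.14-fold. The other place was Pcdhga12, the last of the A genes, with 1540, 1575, 1989 and 2248 bp covered. The stretch from Pcdhga6 to the end of the Pcdhga11 exon, by contrast, held a single broad peak in NPM1 KD 1, over 0.368% of its length, and none in the other libraries.

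The 3 gamma C genes shared a single broad peak, of 20.4, 19.1, 23.7 and 21.2 kb, and cannot be separated from each other. Its highest narrow summit, at 14.9, 13.0, 16.0 and 12.6-fold, lay 2488, 2415, 2476 and 3558 bp downstream of the start of Pcdhgc3, whose start window was covered over 2441, 2431, 2429 and 2308 bp. There both CTR libraries were above both NPM1 KD libraries by small margins, and in broad peaks the groups overlapped. The start windows of Pcdhgc4 and Pcdhgc5 were covered throughout by narrow peaks in all 4 libraries. From Pcdhgc3 to the first gamma constant exon, broad peaks covered 99.7%, 99.7%, 99.7% and 99.3%.

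Coverage stopped earlier in the gamma constant exons than in those of the alpha cluster. The first gamma constant exon, at 37825021-37825079, was covered in full in all 4 libraries. The second, at 37833265-37833353, lay under a broad peak in CTR 1 and NPM1 KD 1 and under no narrow peak. Of the third, at 37839903-37841873, broad peaks covered 22.8%, 32.6%, 54.5% and 12.2%. The whole gamma block was covered over 59.6%, 52.6%, 76.4% and 46.4%, so the NPM1 KD libraries were the highest and the lowest (56.1 ± 4.97% and 61.4 ± 21.2%, SD, n = 2; exact permutation p = 1.00, two-sided).

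**Figure D3:**
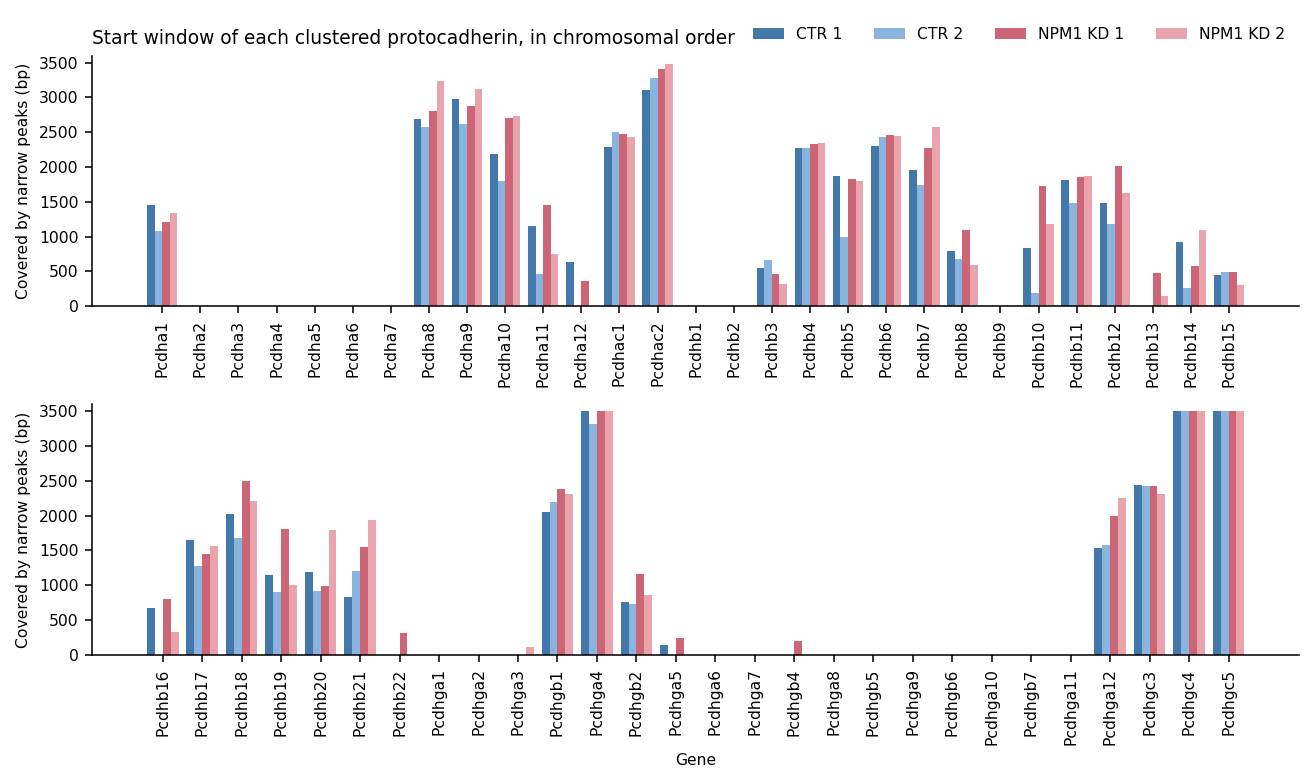
Length of the 3501 bp start window covered by narrow peaks in bp, for each of the 57 genes in chromosomal order and each library as a bar. Runs of genes without bars lie from Pcdha2 to Pcdha7 and from Pcdhga8 to Pcdhga11, and Pcdhgc4 and Pcdhgc5 reach 3501 bp in all 4 libraries.

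Summits over protocadherins were low for marked genes. The highest narrow peak of the start window had a median of 5.20, 4.86, 5.66 and 3.80-fold over the 30 members with a peak in every library, and of 14.8, 14.1, 14.9 and 12.8-fold over the 10269 protein-coding genes with one. Pcdhac2 stood above the genome's median in every library, and the peak shared by Pcdhgc3, Pcdhgc4 and Pcdhgc5 lay near it. The other 26 members were below it in each library, as the plot of fold by member shows. This was a description over genes that share peaks and was not tested.

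**Figure D4:**
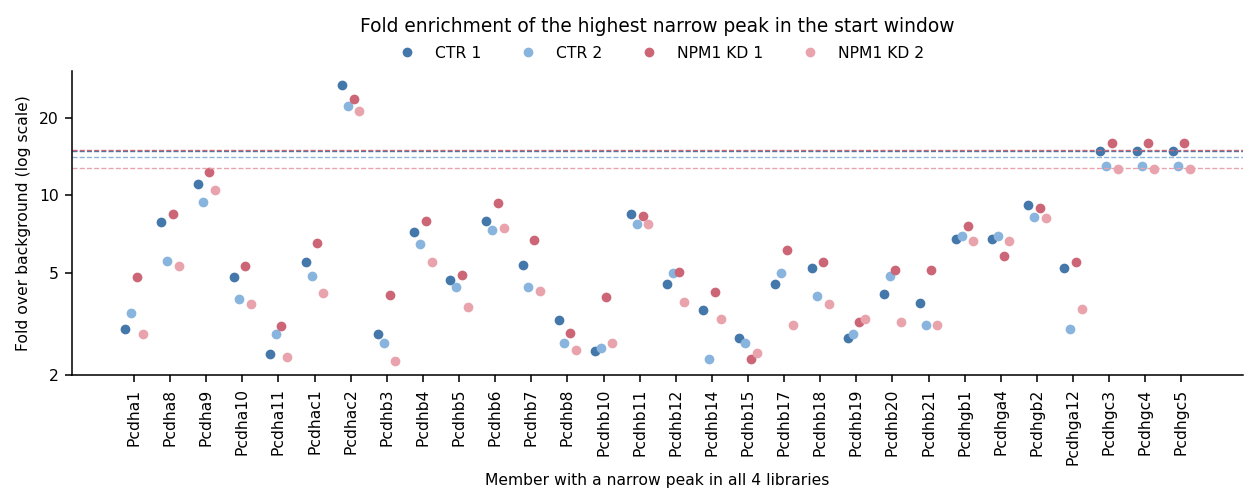
Fold enrichment over background of the highest narrow peak in the start window, on a log scale, for the 30 members with a narrow peak in all 4 libraries. Points are libraries and dashed lines the medians over 10269 genes, which were 14.8 and 14.1 for CTR and 14.9 and 12.8 for NPM1 KD; Pcdhac2 lies above the lines and most members lie well below.

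With NPM1 depleted, more of the locus lay under broad peaks. Of the whole span, 20.8% and 19.1% was covered in CTR and 24.7% and 24.0% in NPM1 KD (19.9 ± 1.16% and 24.3 ± 0.439%, SD, n = 2). Both NPM1 KD libraries were above both CTR libraries, by 4.41 percentage points on average (exact permutation p = 0.333, two-sided, the smallest possible). CTR 1, at 20.8%, and NPM1 KD 2, at 24.0%, had background levels of 11.9 and 11.8. They are 1 library of each group, and the part of depth in the difference was not tested. Mean covered length was 182 kb in CTR and 222 kb in NPM1 KD, a ratio of 1.22, beside 1.08 for all broad peaks of the genome. Among the stricter peaks (−log10 q of 5 or more), the ratios were 1.16 and 1.07.

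The added length was uneven along the locus. The alpha cluster was covered over 33.9%, 31.8%, 35.8% and 37.9%. The beta cluster was covered over 17.8%, 14.8%, 22.6% and 21.3%. The gamma cluster was covered over 27.2%, 26.5%, 36.2% and 32.6%. In each cluster both NPM1 KD libraries were above both CTR libraries in broad peaks, with exact permutation p = 0.333. In narrow peaks this order held for the beta and gamma clusters. The alpha cluster was covered by narrow peaks over 30.5%, 28.2%, 30.2% and 33.9%, and the groups overlapped (exact permutation p = 0.667). Among peaks of −log10 q of at least 5 the mean difference in the beta cluster was -0.234 percentage points in place of 5.62.

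The stretch from the end of Pcdhga12 to Pcdhgc3 gave 8.56 kb, or 21.3%, of the 40.2 kb by which mean coverage of the span differed. Broad peaks covered 17.7%, 17.7%, 41.5% and 39.1% of it, and narrow peaks 9.18%, 5.49%, 16.0% and 21.6%. Both lists had both NPM1 KD libraries above both CTR libraries (exact permutation p = 0.333). All broad peaks lying wholly within it were weak, at most 2.04, 2.18, 2.26 and 2.13-fold, and none had a −log10 q of 5. The stretch between Pcdhac1 and Pcdhac2, 16.2% of the difference, was covered by broad peaks over 43.2%, 41.7%, 48.7% and 60.6%. Narrow peaks covered 32.1%, 29.3%, 30.6% and 43.5% of it, so the groups overlapped and only NPM1 KD 2 stood apart (exact permutation p = 0.667). These stretches were picked after their values were seen.

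**Figure D5:**
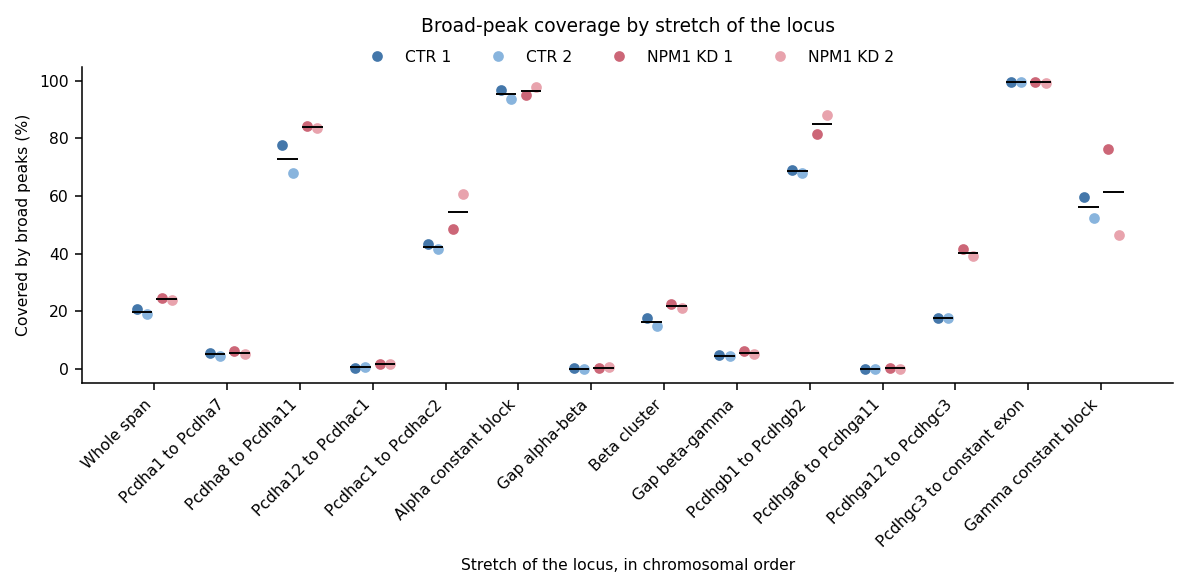
Percent of each stretch of the locus covered by broad peaks, in chromosomal order, with 1 point per library and a black line at each group's mean (n = 2). The whole span runs from 19.1% to 24.7%, the 2 NPM1 KD points lie at 41.5% and 39.1% between Pcdhga12 and Pcdhgc3 against 17.7% in both CTR libraries, and the NPM1 KD points of the gamma constant block are far apart.

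The gaps between clusters held few peaks. Broad peaks covered 0.194%, 0%, 0.280% and 0.619% of the gap from alpha to beta. Where present, this coverage was the right end of a broad peak over the third alpha constant exon. The gap from beta to gamma was covered over 4.85%, 4.42%, 6.15% and 5.29%, with most of it on Taf7, which encodes a subunit of the general transcription factor TFIID, and Slc25a2, which encodes a mitochondrial carrier. Of the stretch holding these genes 90.5%, 87.9%, 100% and 100% was covered. Ahead of Slc25a2 the gap had no broad peak in CTR and 0.0106% and 0.262% coverage in NPM1 KD. That coverage was the left end of the peak over Slc25a2 and Taf7 and not a separate peak. It started at 37637365 in NPM1 KD 1 and at 37637081 in NPM1 KD 2. Both gaps had more covered by broad peaks in both NPM1 KD libraries (exact permutation p = 0.333 for each). In the alpha to beta gap this order did not hold in the other lists. Narrow peaks covered 0, 0, 0 and 188 bp of it, and broad peaks of −log10 q of at least 5 covered 150, 0, 0 and 478 bp.

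Start windows of single members were compared in one limma fit of log2(covered bp + 1000) in broad peaks over 10899 protein-coding genes with a broad peak in at least 1 library. Of the 57 members 38 entered it, and 0 passed an adjusted p of 0.05 (Benjamini-Hochberg), beside 0.00918% of all windows tested. Over all genes 695 windows had an unadjusted p under 0.05, and 5 members did. The only window that passed was that of the histone gene Hist1h2ae. The 5 members, named after their values were seen, were Pcdhac2, Pcdhb10, Pcdhb20, Pcdhga3 and Pcdhgb2, all with a positive difference. Pcdhga3 had 0, 0, 228 and 243 bp covered by broad peaks, a log2 difference of 0.31 ± 0.01 (SE; limma adjusted p = 0.190). Its NPM1 KD peaks did not overlap, with left edges 2009 bp (NPM1 KD 1) and 312 bp (NPM1 KD 2) from the start. The small SE thus reflects similar lengths and not a shared peak, and narrow peaks covered 0, 0, 0 and 118 bp. Pcdhb20 had 1871, 1857, 2077 and 2064 bp, a log2 difference of 0.10 ± 0.00441 (limma adjusted p = 0.231). Pcdhgb2 had 933, 1191, 1935 and 2183 bp, a log2 difference of 0.57 ± 0.10 (limma adjusted p = 0.571). Pcdhb10 had 917, 452, 1770 and 1690 bp, a log2 difference of 0.71 ± 0.18 (limma adjusted p = 0.762). With 1 library left out, limma called Pcdha9 without CTR 1, no member without CTR 2, Pcdhga3 without NPM1 KD 1, and Pcdhb2, Pcdhga3 and Pcdhga6 without NPM1 KD 2. The same fits called 1.62%, 0%, 2.03% and 1.91% of all windows tested. In each of these calls the group left with a pair of libraries had the same covered length in both. With the replicate number as a block, limma called 0 of all windows (0%), Hist1h2ae included, and 7 members and 931 windows had an unadjusted p under 0.05.

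Ranges of broad coverage did not overlap at 17 of the 38 members, with both NPM1 KD libraries higher, beside 21% of all windows tested. Both CTR libraries were higher at 0 of the 38, beside 4.38%. The 17 were 1 alpha, 1 alpha C, 11 beta, 2 gamma A and 2 gamma B genes. Members entered the fit through a peak in any library, so windows that are bare in CTR could only differ one way. Windows full in all 4 libraries, as at Pcdha8, Pcdhgc4 and Pcdhgc5, could not separate the groups and also enter the share over all windows. How common full windows are among members and among all genes was not compared, so the 2 shares are not on an equal footing. Summit height did not follow the same order. For the fold of the highest narrow peak, both NPM1 KD libraries were higher at 2 of 30 members, beside 9.41% of all windows, and both CTR libraries at 2, beside 26.8%. In limma on log2 fold, 0 of the 30 passed, beside 0.0584% of windows, with a smallest adjusted p of 0.860 and 0 members at an unadjusted p under 0.05. Without CTR 1 or CTR 2 limma called no member, beside 0.224% and 0.175% of windows. Without NPM1 KD 1 it called Pcdhb17 and Pcdhb20, both lower in NPM1 KD, beside 13.4% of windows, and without NPM1 KD 2 Pcdhb3 and Pcdhb10, both higher, beside 2.6%. With the replicate block it called 0 members and 1.14% of windows, and 2 members had an unadjusted p under 0.05. In simulated data with these spreads, 0 of 200 windows changed by 1 on the log2 fold scale were called, so a change of that size was not detectable here.

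Genes around the clusters had higher summits than most members. Of 18 protein-coding genes in the span or within 200 kb of it, 13 had a narrow peak at the start in all libraries, beside 47% of all genes. Their median highest fold was 14.3, 12.6, 14.3 and 13.1. These were Tmco6, Ndufa2, Ik, Wdr55, Hars, Hars2, Zmat2, Slc25a2, Taf7, Diaph1, Hdac3, Rell2 and Arap3. The 5 without one were Dnd1, Fchsd1 and the predicted genes Gm42416, Gm37013 and Gm37388, whose starts lie in the bare part of the alpha cluster and whose annotation runs into the gamma cluster. Diaph1, an actin nucleator on the reverse strand whose 3′ end lies just beyond the gamma constant exons, had 2408, 2361, 2418 and 2346 bp of its start window covered by narrow peaks. In 0 of 14 such genes tested did limma call the covered length, beside 0.00918% of all windows. In broad peaks both NPM1 KD libraries were above both CTR libraries at 5 of the 14, beside 21% of all windows. These were Wdr55, Zmat2, Slc25a2, Taf7 and Rell2, of which Slc25a2 and Taf7 share a peak. Both CTR libraries were above both NPM1 KD libraries at 0, beside 4.38%.

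Genes that act on protocadherin promoters were marked almost throughout. Of 19 regulators, 18 had a narrow peak in all libraries, beside 47% of all genes. By limma 0 were called, beside 0.00918% of all windows, a share too low for this count to be informative. Ctcf, the insulator protein that binds variable promoters, had 3501, 3501, 3501 and 2843 bp of its start window under broad peaks. Dnmt3b, a DNA methyltransferase, had 2268, 845, 2156 and 1946 bp. Smchd1, a chromatin silencing protein, had 3207, 3007, 3142 and 2493 bp. Ehmt1, a histone H3K9 methyltransferase, had 3053, 2501, 3062 and 3043 bp. At Ctcf, Dnmt3b, Smchd1 and Ehmt1 the groups' ranges overlapped. Both NPM1 KD libraries were above both CTR libraries at 3 of the 19, namely Rad21, Setdb1 and Dnmt1, beside 21% of all windows. Both CTR libraries were above both NPM1 KD libraries at 0 of the 19, beside 4.38%. Wiz, a zinc finger partner of the H3K9 methyltransferases, was the regulator without a narrow peak in 3 of 4 libraries.

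The intracellular partners of the cytoplasmic tails were marked in a like manner, at 11 of 12 genes, beside 47% of all genes. Of the 11 tested by limma 0 were called, beside 0.00918% of all windows. Nckap1, a subunit of the WAVE actin-regulating complex, had 2299, 2254, 3501 and 2319 bp under broad peaks, and both NPM1 KD libraries exceeded both CTR libraries with a small margin in NPM1 KD 2. Wasf1, the WAVE protein itself, had 3501, 3501, 3501 and 2976 bp, and Abi2, another subunit, 2470, 2381, 2980 and 2358 bp. Axin1 had 2224, 2219, 2218 and 2204 bp, with both CTR libraries higher by a small margin. Each order was thus found at 1 of the 12 partners, beside 21% of all windows with NPM1 KD higher and 4.38% with CTR higher. Ptk2b, a kinase bound by the tails, had no peak in any library. Of the 12 non-clustered protocadherins, whose genes stand alone, only Pcdh1 had a peak, of 64.6, 60.9, 56.4 and 43.4-fold. The other 11, among them Pcdh7, Pcdh9, Pcdh10 and Pcdh19, had no narrow or broad peak in the start window in any library.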

How the data were processed

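H3K79me2 ChIP-seq libraries of N2a cells (paired-end, 51 bp reads) were analysed as deposited peak lists on mm10. The submitters' processing notes name FastQC 0.11.9, Trimmomatic 0.38, Bowtie2 2.3.4.1, SAMtools, MACS2 2.2.6, ChIPseeker 1.28.3 and deepTools 3.3.2.0.0. Whether the pooled inputs, not analysed here, entered peak calling was not given in the sources used here. The authors called peaks per library. In the deposited lists the fold enrichment, the −log10 p and the −log10 q are columns of their own, beside a score column that was not used. The low values end at the authors' calling threshold, so an absent peak is no measure of absent signal.

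Coverage was computed as bases under peaks, with overlapping peaks merged. Windows ran from 1 kb upstream to 2.5 kb downstream of the start of the principal transcript of each gene in GENCODE M21. Summit pileups were recovered from fold and −log10 p, with a tolerance of 0.001 on the latter. limma 3.58.1 in R 4.3.3 fitted log2(covered bp + 1000) without covariates over all windows with a peak, with Benjamini-Hochberg adjustment. Single values were compared by exact permutation over libraries (scipy 1.17.1). No low-value filter other than the calling threshold was applied to counts of marked genes. All libraries are grouped by their treatment label. Alternatives covered the list, the peak threshold, the window, the pseudocount, the filter, each library left out and the replicate block. The study's methods give each biological replicate its own passage and transfection batch, so libraries of equal number were read as pairs. Differences between replicates 1 and 2 correlated between the groups at r = 0.222 over all windows and 0.437 over the 38 members tested. Steps were tested on simulated data. For changes of 0.5 on the log2 covered scale, 91 of 200 changed windows and 10 of the unchanged ones were called. The simulated noise was each window's own spread between replicates. Windows full in all 4 libraries have no such spread and cannot gain coverage, yet they were simulated like the others. These counts therefore do not measure recovery in partly covered windows.

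The genes and lists were chosen with earlier results of these data known. All 57 members are accounted for; named with values were the 20 with most libraries marked and then most covered bases, neighbours within 200 kb, and up to 4 genes with the largest difference per list, with genes without a peak. Exons that recur elsewhere were measured on chromosomes of the RefSeq GRCm38 assembly by exact match of 51 bases on both strands.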

Additional observations from a re-analysis of the deposited data

How the results depend on the processing

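Of 70 alternative values 48 kept the direction or stayed within 1.5 times the count. A difference of 0 was counted among them. That was the value between Pcdhga12 and Pcdhgc3 among peaks of −log10 q of at least 5, in place of 22.6 percentage points. The span's difference under the replicate block, which the block cannot change, was counted as well. The count of members marked in all 4 libraries went from 30 to 12 (21.1%, beside 39.0% of all genes) when at least 50% of the window had to be covered and to 18 (31.6%, beside 45.2%) in a window of 1 kb either side of the start. For both CTR libraries the same settings gave 12 and 18, and for both NPM1 KD libraries 50% coverage gave 17 in place of 32. The difference in covered length of the alpha constant block, 375 bp, ranged from -86.5 to 836.5 bp with 1 library left out, turning negative without CTR 2 (-86.5) and without NPM1 KD 2 (-80.5), and that of the gamma block, 900 bp, from -1627.5 (without NPM1 KD 1) to 3427.5 bp. The beta cluster's difference turned to -0.234 percentage points among peaks of −log10 q of at least 5, an alternative chosen after seeing the data. The span's difference of 4.41 points ranged from 3.59 to 5.23 with 1 library left out.

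The number of start windows called by limma over all genes was 1 for covered length, and it was 0 with narrow peaks, 40 with −log10 q of at least 5, 9 in the shorter window, and 176, 0, 219 and 208 without CTR 1, CTR 2, NPM1 KD 1 and NPM1 KD 2. The fit on fold, chosen after seeing the data, gave 6, and 23, 18, 1372 and 267 with the same libraries left out in turn. In these fits the lone sample of an arm is assumed to vary like the other. With the replicate number as a block, 0 windows were called for covered length and 117 for fold, with 0 members in either. The span's difference under the block was 4.41 points, but with balanced pairs the block cannot change a difference of group means. The cause of these movements was not tested. Library depth was not given, and with 2 libraries per group the exact test could not fall below 0.333.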
